A study of Saccharomyces cerevisiae and Saccharomyces kudriavzevii and Saccharomyces uvarum with 18 samples.

Results

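The genes described here encode 10 subunits of the yeast vacuolar ATPase, chosen by ORF identifier out of 6172 genes in the deposited array table. VMA1 (YDL185W), VMA2 (YBR127C), VMA5 (YKL080W), VMA8 (YEL051W), VMA4 (YOR332W), VMA7 (YGR020C) and VMA13 (YPR036W) make up 7 members of the V1 sector, and VMA3 (YEL027W), VPH1 (YOR270C) and STV1 (YMR054W) are 3 members of the V0 sector. 9 members had a value on all 18 arrays, and VMA4 lacked the value of 1 S. kudriavzevii array at 12°C. The RNA came from fermentations of Tempranillo grape must that ran at 28°C or 12°C until cells began stationary phase. On each array, 1 of 3 cold-tolerant strains was hybridised against the wine strain S. cerevisiae Lalvin T73 from a fermentation of equal temperature. These were S. uvarum CECT 12600, which the study names S. bayanus var. uvarum, S. kudriavzevii IFO 1802, and the commercial wine yeast S. cerevisiae Fermol cryophile, here called S. cerevisiae. Each strain and temperature had 3 arrays, lettered A, B and C. No strain was an engineered mutant, and each species stood as 1 strain, so that species and strain cannot be told apart. Every value below is a log2 ratio of the strain to T73, so 0 means an equal level in both, and 1 means a level 2-fold that of T73.

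The V-ATPase pumps protons into the vacuole, the large acidic compartment of the yeast cell, and into the Golgi and endosomes. Its V1 sector hydrolyses ATP on the cytosolic side and turns a central stalk, and the stalk drives a ring of proteolipids in the membrane-bound V0 sector that carries the protons. The gradient powers exchangers that store calcium, metals and amino acids in the vacuole and keeps its proteases active, and cells regulate the pump by releasing V1 from V0 when glucose runs short. In wine yeast the enzyme works beside the plasma membrane H+-ATPase to hold the cytosolic pH in an acidic must.

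The 18 arrays held 5675 to 6167 gene values each, with medians between -0.196 and 0.208 and standard deviations between 0.63 and 1.99. Replicate arrays of 1 group correlated at r = 0.0276 to 0.705 over genes, so that some replicates were nearly unrelated and others alike. All arrays carried the strain in Cy3 and T73 in Cy5, so that any preference of a gene for one dye is contained in its values. The spots were PCR products of S. cerevisiae S288c, and sequence divergence of the S. uvarum and S. kudriavzevii transcripts cannot be told apart from a lower level on 1 array. The study reports DNA hybridisations in which most genes of both species bound under its conditions. Those DNA data were not used here. The methods mention both 2 fermentations and 3 hybridisation experiments, and if replicates shared a culture the SDs and p-values are too small. The ratios describe RNA pooled from whole cultures, in which fewer expressing cells and less RNA per cell cannot be told apart.

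At 28°C most V-ATPase subunits stood above T73 in S. uvarum and S. cerevisiae, and at 12°C most stood below it in S. cerevisiae and S. kudriavzevii. Over all members, 58 of 90 values lay above 0 at 28°C (64.4%, against 51.8% of all gene values) and 25 of 89 at 12°C (28.1%, against 47.9% of all gene values). The median of the members on an array ran from -0.41 to 1.44 over the 9 arrays at 28°C, with a middle value of 0.50. At 12°C it ran from -0.99 to 0.32, with a middle value of -0.67. The ranges overlapped, and the arrays differed within a group: S. uvarum at 12°C had 1, 5 and 8 members above T73 on replicates A, B and C, and S. cerevisiae at 28°C had 10, 8 and 4.

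**Figure D1:**
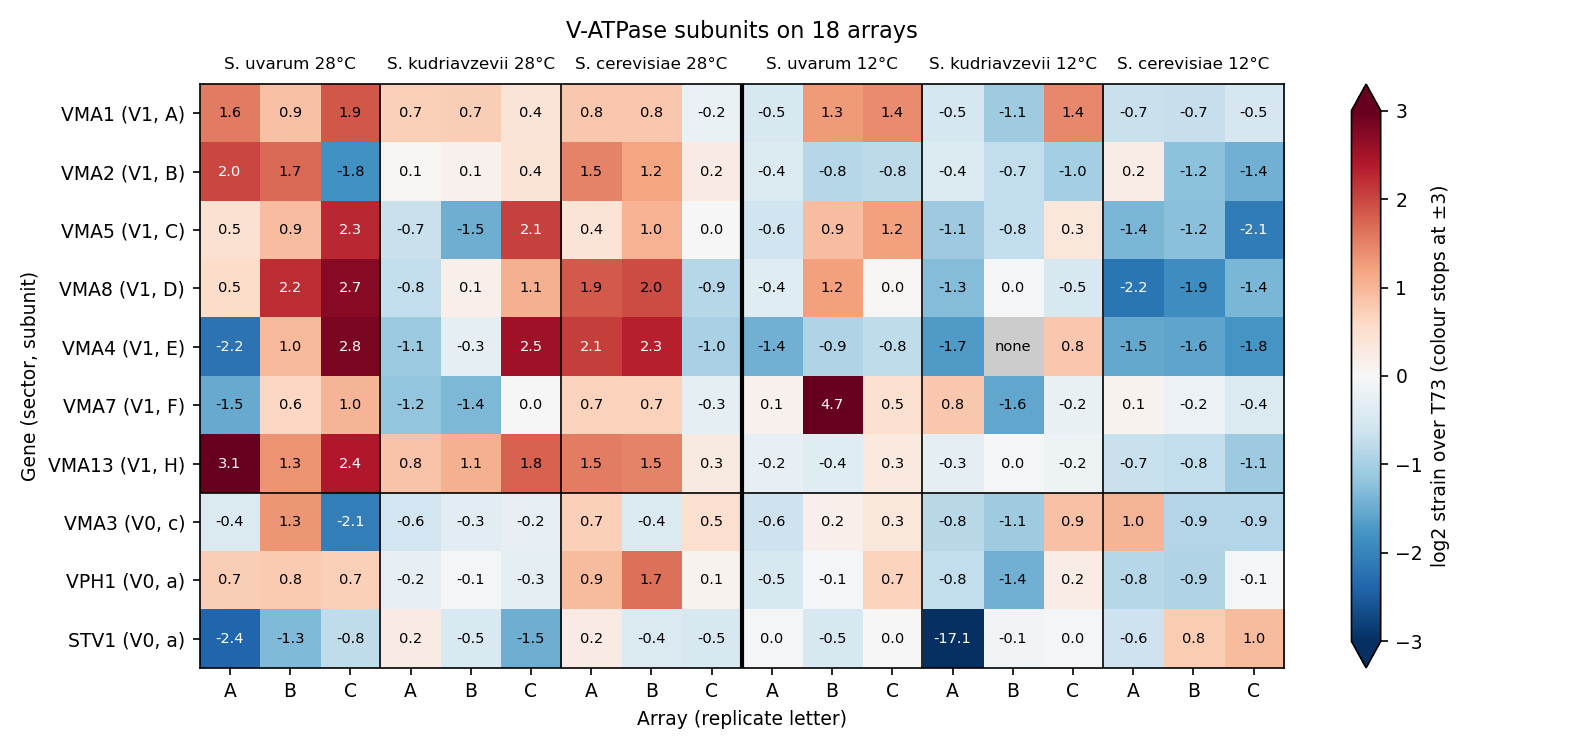
Log2 ratio of strain over T73 (colour, red above T73 and blue below; the colour stops at ±3 while the printed numbers do not) for 10 V-ATPase genes (rows, V1 above V0) on 18 arrays (columns, 3 per strain, 28°C left of 12°C). VMA13 was red on 9 of 9 arrays at 28°C, and the STV1 value of -17.14 stood alone on 1 S. kudriavzevii array at 12°C.

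**Figure D2:**
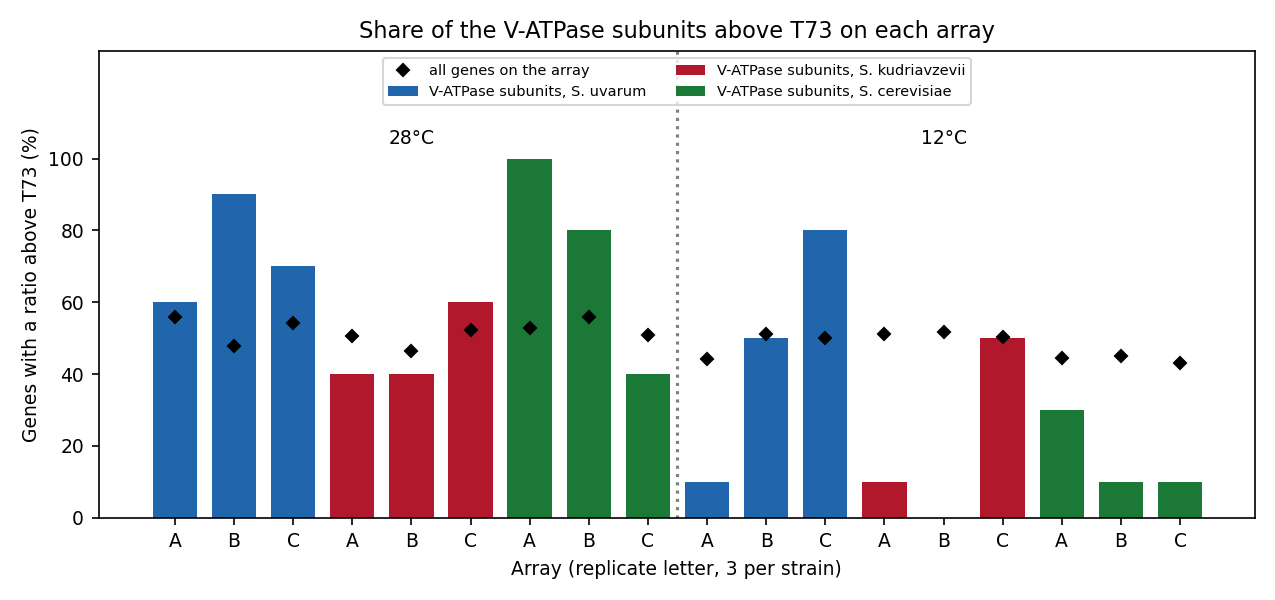
Share of measured V-ATPase members with a ratio above T73 (bars, percent, coloured by strain) and the same share over all genes (diamonds) on each array, 28°C left of 12°C. The number of members above T73 ran from 4 to 10 at 28°C and from 0 to 8 at 12°C.

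The first comparison asked which subunits had a different ratio to T73 in warm and in cold fermentations, averaged over the 3 strains. VMA13, VMA8, VMA2 and VPH1 were higher relative to T73 at 28°C than at 12°C, by 0.89 to 1.90 on the log2 scale. No member was lower at 28°C past the threshold, an adjusted p under 0.05 from a limma fit over all genes. These 4 of 10 members stood beside 36.2% of all genes that differed in this comparison, of which those higher at 28°C made up 19.8% of genes tested. The median difference over the members was 1.09 and that over all genes was 0.14. Because every ratio has T73 of the same temperature below the line, the difference holds the response of T73 with the opposite sign, and the responses of the strains and of T73 cannot be told apart.

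VMA13 encodes subunit H, which is needed for ATP hydrolysis by the assembled enzyme and silences V1 once it is free, and it had the lowest adjusted p of all members. At 28°C its ratios were 3.10, 1.34 and 2.40 for S. uvarum, 0.85, 1.06 and 1.78 for S. kudriavzevii, and 1.54, 1.49 and 0.28 for S. cerevisiae. At 12°C they were -0.24, -0.37 and 0.30 for S. uvarum, -0.27, -0.04 and -0.16 for S. kudriavzevii, and -0.67, -0.75 and -1.09 for S. cerevisiae. Thus 9 of 9 arrays at 28°C lay above T73 and 1 of 9 did at 12°C, and 8 of the 9 warm arrays exceeded every cold one. The exception was replicate C of S. cerevisiae, at 0.28, just under the highest S. uvarum value at 12°C. The averaged difference was 1.90 (SE 0.30, 95% interval 1.27 to 2.53, adjusted p = 0.000438). It was also past the threshold within S. uvarum (2.38, SE 0.52, adjusted p = 0.0301) and within S. cerevisiae (1.94, SE 0.52, adjusted p = 0.0286), and it was 1.38 in S. kudriavzevii (SE 0.52, adjusted p = 0.154). The averaged call held with each of the 18 arrays left out in turn, but that within S. uvarum was lost without its replicate C at 28°C or its replicate A, B or C at 12°C, with adjusted p up to 0.104, and with arrays scaled to 1 spread (1.83, adjusted p = 0.0515).

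VMA8 encodes subunit D, the shaft of the central rotor. Its ratios at 28°C were 0.54, 2.21 and 2.72 for S. uvarum, -0.75, 0.15 and 1.06 for S. kudriavzevii, and 1.85, 1.96 and -0.86 for S. cerevisiae. At 12°C they were -0.37, 1.24 and 0.04 for S. uvarum, -1.31, -0.03 and -0.49 for S. kudriavzevii, and -2.19, -1.87 and -1.36 for S. cerevisiae. All 3 S. cerevisiae arrays at 12°C were below any array at 28°C, while the other strains overlapped between temperatures. The difference between temperatures was 2.79 in S. cerevisiae (SE 0.78, adjusted p = 0.0319) and 1.69 averaged over strains (SE 0.45, adjusted p = 0.0089). The averaged call held without any 1 array, but that within S. cerevisiae was lost in 5 of 18 such fits: without replicate A, B or C at 12°C or without A or B at 28°C, with adjusted p up to 0.169, and with arrays scaled (2.34, adjusted p = 0.067). The same 5 fits lost the VMA13 call within S. cerevisiae, with adjusted p up to 0.147. Without replicate C at 28°C the count of members called there was 4 in place of 2. The share of all genes called in that fit is not given here, so the rise is not shown to be particular to the members.

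The catalytic head of V1 is built from alternating A and B subunits, the products of VMA1, whose transcript also encodes a self-splicing endonuclease, and of VMA2, which forms the non-catalytic nucleotide sites. VMA2 had ratios at 28°C of 2.01, 1.70 and -1.82 for S. uvarum, 0.06, 0.13 and 0.41 for S. kudriavzevii, and 1.49, 1.18 and 0.24 for S. cerevisiae. At 12°C the VMA2 values were -0.42, -0.85 and -0.79 for S. uvarum, -0.44, -0.74 and -1.03 for S. kudriavzevii, and 0.22, -1.23 and -1.45 for S. cerevisiae. Apart from replicate C of S. uvarum, every warm array was above T73, and apart from replicate A of S. cerevisiae every cold array was below it. The averaged VMA2 difference was 1.35 (SE 0.45, adjusted p = 0.0278), a call lost in 6 of 18 fits that left out 1 array (without S. uvarum 28°C B, S. kudriavzevii 28°C C, or S. cerevisiae 28°C A or B or 12°C B or C), with adjusted p up to 0.0576.

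VMA1 lay above T73 on 8 of 9 arrays at 28°C, where its values ran from -0.19 to 1.86 with a median of 0.81, and on 3 of 9 arrays at 12°C, where they ran from -1.06 to 1.45 with a median of -0.50. Its averaged difference was 0.81 (SE 0.37), which did not pass the threshold (adjusted p = 0.0923). The cold arrays of VMA1 split within strains: S. uvarum had -0.47 on replicate A but 1.27 and 1.41 on B and C, and S. kudriavzevii had -0.53 and -1.06 on A and B but 1.45 on C. In S. cerevisiae the 3 cold values were close together, at -0.67, -0.69 and -0.50.

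Subunits C and E belong to the peripheral stalks that hold the head still, and subunit C, from VMA5, leaves the complex when V1 and V0 separate. VMA5 ranged from -1.47 to 2.26 at 28°C (median 0.46, 6 of 9 arrays above T73) and from -2.09 to 1.23 at 12°C (median -0.75, 3 of 9 above). VMA4, for subunit E, ranged from -2.21 to 2.83 at 28°C (median 0.97, 5 of 9 above) and from -1.78 to 0.80 at 12°C (median -1.48, 1 of 8 above). Both genes spread more widely than VMA13 and did not pass the threshold: the averaged differences were 1.07 for VMA5 (SE 0.46, adjusted p = 0.0767) and 1.72 for VMA4 (SE 0.72, adjusted p = 0.0722). VMA4 on replicate A of S. uvarum at 28°C read -2.21, with 0.97 and 2.83 on B and C. VMA7, for subunit F of the central stalk, went the other way in its estimate, at -0.57 (SE 0.57, adjusted p = 0.446). Its values ran from -1.52 to 1.02 at 28°C and from -1.55 to 4.65 at 12°C. The top value came from replicate B of S. uvarum, where replicates A and C had 0.12 and 0.49.

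**Figure D3:**
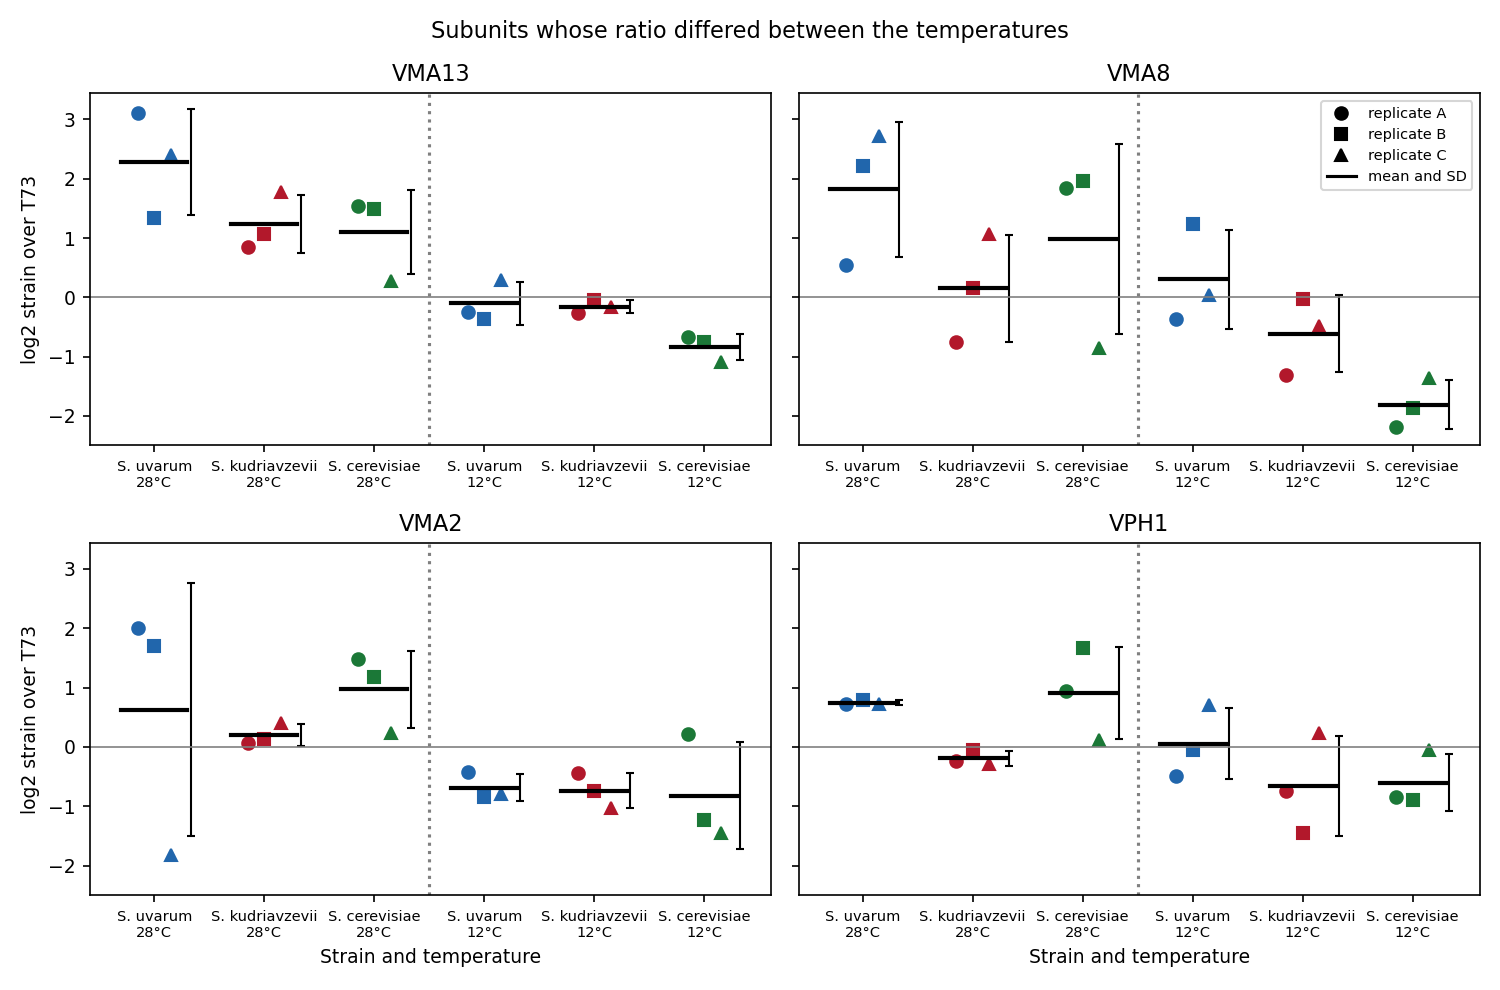
Log2 ratio of strain over T73 for the 4 members whose averaged ratio differed between temperatures, by strain, 28°C left of 12°C. Symbols are replicates A, B and C, horizontal lines are means and bars are ± 1 SD (n = 3 arrays); VMA13 in S. uvarum averaged 2.28 at 28°C and -0.10 at 12°C, and replicate C of S. uvarum at 28°C stood alone for VMA2 at -1.82.

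In the V0 sector, VPH1 and STV1 encode alternative forms of subunit a, the stationary membrane subunit. Vph1 directs the enzyme to the vacuole and Stv1 to the Golgi and endosomes. VPH1 had ratios at 28°C of 0.73, 0.79 and 0.72 for S. uvarum, -0.24, -0.05 and -0.29 for S. kudriavzevii, and 0.94, 1.66 and 0.11 for S. cerevisiae. At 12°C the VPH1 ratios were -0.49, -0.05 and 0.70 for S. uvarum, -0.75, -1.45 and 0.23 for S. kudriavzevii, and -0.85, -0.90 and -0.05 for S. cerevisiae. The averaged VPH1 difference was the smallest of the 4 called, at 0.89 (SE 0.31, adjusted p = 0.0327). The call was lost with arrays centred on their median (0.78, adjusted p = 0.0537), scaled (0.73, adjusted p = 0.0513) or quantile normalised (0.71, adjusted p = 0.0817), and 8 of 18 fits without 1 array lost the call (S. uvarum 12°C A, S. kudriavzevii 28°C B and 12°C A or B, or S. cerevisiae 28°C A or B and 12°C A or B), with adjusted p up to 0.0779.

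STV1 was below T73 on 7 of 9 arrays at 28°C, with -2.37, -1.32 and -0.76 for S. uvarum, 0.24, -0.46 and -1.47 for S. kudriavzevii, and 0.25, -0.43 and -0.49 for S. cerevisiae. At 12°C it read -0.04, -0.48 and 0.02 for S. uvarum, -17.14, -0.08 and -0.04 for S. kudriavzevii, and -0.63, 0.76 and 0.96 for S. cerevisiae. The value of -17.14 on replicate A was 1 of 76 values below -10 in the whole table, which held none above 10, while the other 2 replicates of that group equalled T73 within 0.08. With it, the averaged STV1 difference was 1.10 (SE 1.64, adjusted p = 0.618). With values below -10 treated as missing the sign turned, to -0.80 (SE 0.35, adjusted p = 0.0862). VPH1 exceeded STV1 in ratio to T73 on 8 of 9 arrays at 28°C, with differences from -0.48 to 3.10 and a median of 1.18. At 12°C it did so on 4 of 9 arrays, with a median difference of -0.23. VMA3, for the main proteolipid of the proton-carrying ring, showed the smallest temperature difference of the members (0.03, SE 0.45, 95% interval -0.91 to 0.97, adjusted p = 0.961), and its values ran from -2.08 to 1.32 at 28°C and from -1.07 to 1.01 at 12°C.

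**Figure D4:**
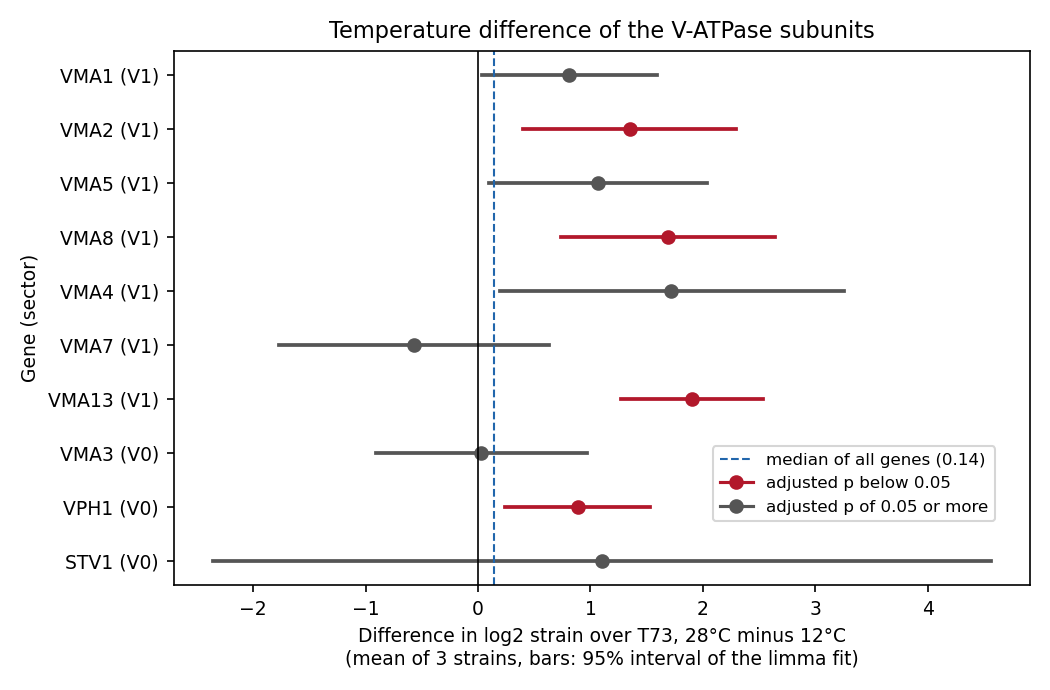
Difference in log2 ratio of strain over T73 between 28°C and 12°C, averaged over 3 strains (points, log2 units, horizontal axis), with 95% intervals of the limma fit (bars), for 10 members. Red marks an adjusted p below 0.05, and the dashed line is the median of all genes, 0.14; the estimate of VMA13 was 1.90 and that of VMA7 was -0.57.

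Within single strains, 1 member differed between temperatures in S. uvarum (VMA13), none in S. kudriavzevii and 2 in S. cerevisiae (VMA8 and VMA13), where 2.87, 0.407 and 12.2% of all genes did, in the same order of strains. At an unadjusted p under 0.05 the counts were 1, 1 and 6 of 10, beside 22.9, 20.4 and 32.7% of all genes. The median member difference was 0.69 in S. uvarum, 0.71 in S. kudriavzevii and 1.65 in S. cerevisiae, and over all genes it was 0.13, -0.04 and 0.28. Whether these temperature differences themselves differed between strains was tested in the same fit: no member passed for S. uvarum against S. kudriavzevii, S. uvarum against S. cerevisiae or S. kudriavzevii against S. cerevisiae, none had an unadjusted p under 0.05 (2.79 to 5.62% of all genes had), and 0% of all genes passed. The widest such estimate among the V1 genes, -2.25 for VMA7 in S. uvarum against S. cerevisiae, had a 95% interval of -5.18 to 0.69, which leaves room for differences of that size. The 2 non-yeast control spots also differed between the temperatures. The Arabidopsis spot had a median of -0.83 at 28°C (1 of 9 arrays above 0) and of 1.61 at 12°C (9 of 9), and the buffer spot had -1.16 at 28°C (1 of 9) and 1.22 at 12°C (6 of 9). These run opposite to the V-ATPase genes, and their part in the result was not tested. Of 81 pairs of arrays from different temperatures, 15 correlated below -0.3 over all genes, the lowest at -0.618 and the median at 0.0586. The direction was kept for all arrays because the labels give 1 dye orientation throughout.

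The next comparison set each strain against T73 at 28°C. In S. uvarum, VMA13 (2.28 ± 0.89, SD, n = 3; SE of the fit 0.36, adjusted p = 0.00296) and VMA8 (1.82 ± 1.14, SD, n = 3; SE 0.55, adjusted p = 0.0427) were above T73, which is 2 of 10 members beside 10.9% of all genes. VMA1 at 1.43 just missed the threshold (adjusted p = 0.0511). The VMA13 value was called in 18 of 18 fits without 1 array, whereas VMA8 was lost in 6 of them, with adjusted p up to 0.288 without replicate C of S. uvarum at 28°C. The other 5 were those without S. uvarum 28°C B or 12°C C, S. kudriavzevii 28°C B, or S. cerevisiae 12°C B or C. Fitted on the 3 arrays of S. uvarum alone neither passed, with adjusted p of 0.179 for VMA13 and 0.253 for VMA8. In that fit 0% of all genes passed, so the loss says nothing particular about these 2 genes. VMA8 was also lost when arrays were centred (1.72, adjusted p = 0.0519), scaled (1.54, adjusted p = 0.168) or quantile normalised (1.60, adjusted p = 0.154).

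In S. kudriavzevii at 28°C, 0 of 10 members passed the limma test, beside 0.146% of all genes, and 1 had an unadjusted p under 0.05, beside 11.3% of all genes. VMA13 had the highest mean there, at 1.23 ± 0.49 (SD, n = 3, adjusted p = 0.199), and VMA7 the lowest, at -0.85 ± 0.74 (SD, n = 3, adjusted p = 0.705). In S. cerevisiae at 28°C, 0 of 10 passed, beside 0.0325% of all genes, and 2 had an unadjusted p under 0.05, beside 13.4% of all genes. The highest means there were 1.14 ± 1.85 for VMA4 and 1.10 ± 0.71 for VMA13 (SD, n = 3 each). Replicate C pulled them down, with 6 of 10 members below T73 against 0 on replicate A and 2 on replicate B. The member medians were 0.69 in S. uvarum, 0.07 in S. kudriavzevii and 0.69 in S. cerevisiae, where the medians over all genes were 0.09, 0.00 and 0.07.

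At 12°C, no member passed against T73 in S. uvarum, beside 6.4% of all genes, and 1 of 10 had an unadjusted p under 0.05, beside 24.7% of all genes. In S. kudriavzevii the only call among 10 was STV1 at -5.76 (SE 2.01, adjusted p = 0.0474), beside 23.4% of all genes, and it rests on the value of -17.14. With that value treated as missing the mean was -0.06 (adjusted p = 0.947), and 15 of 18 fits without 1 array lost the call, all but those without S. uvarum 28°C A or S. kudriavzevii 12°C B or C. In that setting STV1 was instead called below T73 in S. uvarum at 28°C, at -1.48 (SE 0.42, adjusted p = 0.0329), where the SE with all values was 2.01. In S. cerevisiae 0 of 10 members passed at 12°C, beside 8.12% of all genes, although 9 of 10 means were below T73. In each of 6 fits without 1 array 1 member passed, and the share of all genes in those fits is not given here. With all arrays, 3 members had an unadjusted p under 0.05, beside 28.9% of all genes. The lowest S. cerevisiae means were -1.81 ± 0.42 for VMA8 (adjusted p = 0.0517), -1.63 ± 0.13 for VMA4 (adjusted p = 0.209) and -1.57 ± 0.46 for VMA5 (adjusted p = 0.0832), each SD over n = 3. The member medians at 12°C were 0.01 in S. uvarum, -0.47 in S. kudriavzevii and -0.72 in S. cerevisiae, where all genes had 0.04, 0.07 and -0.13.

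The rule of the study's methods, a 2-fold ratio on the median of the 3 arrays, carries no test and passed more members. At 28°C it took 5 of 10 in S. uvarum (VMA1, VMA2, VMA8 and VMA13 above T73, STV1 below), where 34.2% of all genes passed. It took 2 in S. kudriavzevii (VMA13 above, VMA7 below), where 15.1% did, and 4 in S. cerevisiae (VMA2, VMA8, VMA4 and VMA13, all above), where 22.5% did. At 12°C it took 1 in S. uvarum (VMA1, above), 0 in S. kudriavzevii and 4 in S. cerevisiae (VMA2, VMA5, VMA8 and VMA4, all below), where 27.8, 40.3 and 30.3% of all genes passed. VMA13 was thus past 2-fold above T73 in all 3 strains at 28°C and in none at 12°C, and VMA3 and VPH1 were past 2-fold in no group.

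No member differed between strains past the threshold. S. uvarum differed from S. cerevisiae in 0 of 10 members at 28°C, beside 0% of all genes, and in 0 at 12°C, beside 0.0162%. S. kudriavzevii differed from S. cerevisiae in 0 at 28°C, beside 0.0163%, and in 0 at 12°C, beside 0%. For S. uvarum against S. kudriavzevii the count was 0 at both temperatures, beside 0.146% at 28°C and 0% at 12°C. At an unadjusted p under 0.05, the counts at 28°C were 1 for S. uvarum against S. cerevisiae (8.4% of all genes), 0 for S. kudriavzevii against S. cerevisiae (7.24%) and 1 for S. uvarum against S. kudriavzevii (11.4%). The unadjusted counts at 12°C were 3 (8.1%), 1 (7.12%) and 1 (7.32%) for the same pairs. Leaving aside STV1, whose differences at 12°C (-6.12 for S. kudriavzevii minus S. cerevisiae, 5.59 for S. uvarum minus S. kudriavzevii) contain the value of -17.14, the largest estimates were those of VMA8 and VMA5 at 12°C, where S. uvarum stood 2.11 (95% interval 0.47 to 3.75, adjusted p = 0.597) and 2.10 (0.42 to 3.77, adjusted p = 0.597) above S. cerevisiae. The VPH1 arrays of S. kudriavzevii at 28°C were all below T73 and those of S. uvarum and S. cerevisiae all above it, with differences of 0.94 for S. uvarum minus S. kudriavzevii (95% interval -0.18 to 2.06) and -1.10 for S. kudriavzevii minus S. cerevisiae (-2.22 to 0.02, adjusted p = 0.686).

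The members were also compared with each other across arrays, as a description, since values of 1 array share its RNA, dye labelling and scaling. Among 45 pairs of members, the median Spearman rho was 0.23 over the 9 arrays at 28°C (from -0.50 to 0.83) and 0.34 over those at 12°C (from -0.73 to 0.93), where the median over all pairs of 5007 genes was 0.02 at both temperatures. At 28°C VMA4 and VMA7 were the closest pair (0.83), followed by VMA5 and VMA8 (0.78). At 12°C the closest were VMA1 and VPH1 (0.93), followed by VMA5 and VMA8 (0.87). Against the median of the members over 18 arrays, VMA8 (0.88), VMA5 (0.86), VMA13 (0.84), VPH1 (0.83) and VMA1 (0.82) ran closely, VMA2 (0.43), VMA7 (0.40) and VMA3 (0.36) loosely, and STV1 went against it (-0.34). The median over all genes was 0.17. VMA4, which lacked 1 value, was given no rho. Each member is part of the members' median, so its rho is partly built in and cannot be set beside that of all genes. The 5 genes outside the complex with the highest rho to that median were RPS6B (YBR181C, a protein of the small ribosomal subunit, 0.97), TIF1 (YKR059W, the initiation factor eIF4A, 0.97), RPL40B (YKR094C, a ubiquitin fusion to a large-subunit ribosomal protein, 0.96), DOS2 (YDR068W, 0.96) and EFT2 (YDR385W, elongation factor 2, 0.96).

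Subunits of the complex outside the 10 members were also compared between temperatures. Of 5 measured, 3 were higher relative to T73 at 28°C than at 12°C on average over strains and 0 lower, in a comparison where 36.2% of all genes passed and 19.8% were higher: VMA11 (1.45, SE 0.36, adjusted p = 0.0061) and VMA16 (1.26, SE 0.41, adjusted p = 0.0258), which encode the minor proteolipids of the ring, and VMA10 (1.35, SE 0.50, adjusted p = 0.045), which encodes subunit G of the peripheral stalk. VMA11 is close in sequence to VMA3, and whether their spots cross-hybridise was not tested. VMA16 was also above T73 in S. uvarum at 28°C (1.77, SE 0.50, adjusted p = 0.0351), the only call of 5 there, beside 10.9% of all genes. The median of these 5 was 1.35, where all genes had 0.14. Whether the calls of these subunits and of the lists below hold without 1 array or in other settings was not tested.

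Of 9 genes for assembly factors and regulators of V1 binding, 2 were higher at 28°C and 1 lower, a share near the 36.2% of all genes called, with a list median of 0.81. RTC5 was higher by 1.38 (SE 0.38, adjusted p = 0.0115), as was RAV2, of the RAVE complex that reattaches V1 to V0, by 1.15 (SE 0.35, adjusted p = 0.0185). PKR1, an assembly factor of the endoplasmic reticulum, was lower, at -1.39 (SE 0.35, adjusted p = 0.00648), and was above T73 at 12°C in S. kudriavzevii (1.78, adjusted p = 0.0101) and in S. cerevisiae (1.60, adjusted p = 0.0379). VPH2, an assembly factor of the same compartment, was above T73 in S. uvarum at 28°C (1.75, SE 0.40, adjusted p = 0.012). Against T73, 2 of 9 were called in S. uvarum at 28°C, both higher, beside 10.9% of all genes. At 12°C 3 of 9 were called in S. kudriavzevii, 2 higher and 1 lower, beside 23.4% of all genes. In S. cerevisiae at 12°C 1 of 9 was called, beside 8.12%.

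Among 15 transporters of the vacuole and endosome, many of which use the proton gradient, 6 were higher at 28°C and 3 lower, beside the same 36.2% of all genes called and 19.8% higher, with a median of 0.33. NHX1, the endosomal sodium-proton exchanger (1.70, SE 0.30, adjusted p = 0.000841), VCX1, the vacuolar calcium-proton exchanger (1.76, SE 0.31, adjusted p = 0.000911), and AVT7, a putative amino acid transporter (1.28, SE 0.28, adjusted p = 0.00317), were higher. The 3 lower ones were AVT6 (-1.94), VBA3 (-2.20) and VNX1 (-1.10), amino acid and cation transporters. AVT7 was below T73 at 12°C in every strain, at -1.74 for S. uvarum, -1.26 for S. kudriavzevii and -1.42 for S. cerevisiae (adjusted p from 0.0111 to 0.0292). It was the only one of the 15 called below T73 in each of these groups. Called above T73 at 12°C were 0 in S. uvarum, 3 in S. kudriavzevii and 2 in S. cerevisiae. Of all genes, 6.4, 23.4 and 8.12% were called, in the same order. Among 8 vacuolar hydrolases, 4 were higher at 28°C and 0 lower, beside 19.8% of all genes higher, with a median of 1.12: the alkaline phosphatase PHO8 (2.06, SE 0.37, adjusted p = 0.000945), the carboxypeptidase PRC1 (1.59, SE 0.31, adjusted p = 0.00137), the dipeptidyl aminopeptidase DAP2 (1.02, SE 0.30, adjusted p = 0.0153) and the mannosidase AMS1 (1.57, SE 0.47, adjusted p = 0.0172). PHO8 stood at -2.69 against T73 in S. uvarum at 12°C (SE 0.46, adjusted p = 0.00695). In that group 2 of the 8 hydrolases were called, both lower, beside 6.4% of all genes.

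Of 6 genes of the plasma membrane H+-ATPase and its regulators, 1 passed in the averaged comparison: PMP2, a small proteolipid of that pump, was lower at 28°C (-2.44, SE 0.47, adjusted p = 0.00137). PMA1, the pump itself, named outside the rule for its role, had 1.04 (SE 0.48, adjusted p = 0.0986) averaged over strains and 2.61 within S. cerevisiae (SE 0.83, adjusted p = 0.0498). Of 5 genes for synthesis of the signalling lipid of the vacuole, which stabilises the V-ATPase, FAB1, its kinase, was lower at 28°C (-1.31, SE 0.25, adjusted p = 0.00114) and the other 4 did not pass. The list medians were -0.55 for the pump and -0.49 for the lipid genes, and both counts, 1 of 6 and 1 of 5, stood beside 36.2% of all genes. Within S. cerevisiae 2 of the 6 pump genes were called, PMA1 higher at 28°C and 1 other lower, beside 12.2% of all genes. The median of the pump list there was -0.29.

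**Figure D5:**
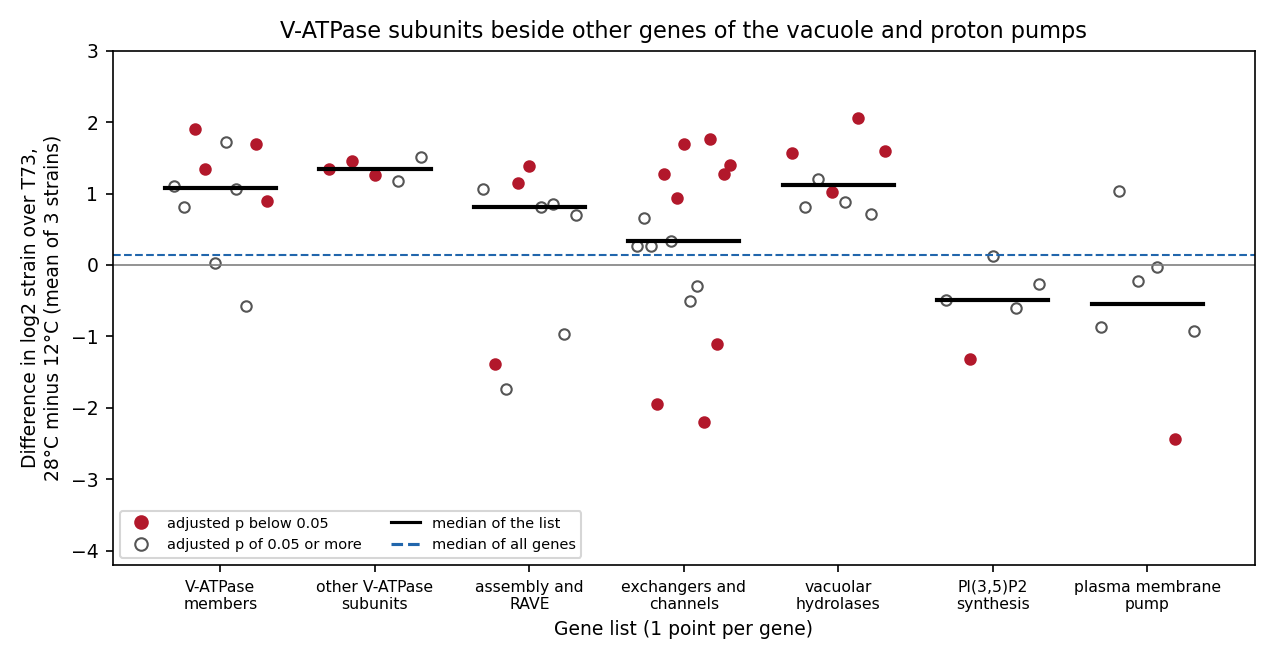
Difference in log2 ratio of strain over T73 between 28°C and 12°C, averaged over 3 strains (vertical axis, log2 units), for each gene (point) of the 10 V-ATPase members and 6 further lists. Filled red points have an adjusted p below 0.05, black lines are list medians, and the dashed line is the median of all genes, 0.14; the medians ran from -0.55 for the plasma membrane pump to 1.35 for the other V-ATPase subunits.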

How the data were processed

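RNA ratios were measured on 18 two-colour Yeast 6.4K arrays. The authors subtracted global background, normalised each array, dropped spots not found, corrected print-tip effects and deposited log2 ratios. Intensities were not used here, so spots near background cannot be identified. The direction is not stated with the values; they were read as Cy5 over Cy3 and the sign turned to strain over T73, after which 114 of 114 directions that the study's text gives matched, against 0 as deposited. This settles the sign of the table, not the dye labels. Table lines (6180, with 2 control spots) were averaged to 6172 genes; 5674 of 6178 ORFs matched a RefSeq R64 locus tag, 12 an older name, and 492 kept the deposited name. No array read depth exists, and the number of arrays limits precision.

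limma 3.58.1 in R 4.3.3 fitted 6 group means over 18 arrays (equal weights, at least 2 values per group, two-sided, Benjamini-Hochberg over all genes). T73 was on every array, and whether arrays of 1 temperature shared its RNA is not stated. If they did, the spread of T73 is left out. The SEs and p-values, also those averaged over strains, are then too small. The main fit treated arrays of the same replicate letter as unpaired. Residuals of same-letter arrays correlated at a median of 0.0169 (-0.358 to 0.39, 5 of 18 pairs over 0.1). A median near 0 cannot exclude that some of these arrays were paired. The code was tested on simulated data. All 10 members are named, with at most 3 called genes per further list by lowest adjusted p (RAV2, AMS1, AVT6, VBA3, VNX1 and PMA1 were added after their values were seen) and the 5 genes of highest rho. Members and lists were chosen with earlier results of these data known. VMA9 was not analysed here. Alternatives were array weights, low values as missing, centring, scaling, quantile normalisation, a stricter filter, a replicate block, separate fits and leaving out each array. Single calls were followed through them for the 10 members only. The S. uvarum replicates carry differing collection numbers in 1 label field; their titles were followed.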

Additional observations from a re-analysis of the deposited data

Results flagged for a closer look

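The ratio to T73 differed between 28°C and 12°C, by the limma contrast itself, in 7 results: on average over strains for VMA13 (1.90), VMA8 (1.69), VMA2 (1.35) and VPH1 (0.89), within S. uvarum for VMA13 (2.38), and within S. cerevisiae for VMA8 (2.79) and VMA13 (1.94). A further set drew attention because every array of one group lay on the other side of T73 from every array of another. Between temperatures these were VMA2 in S. kudriavzevii (28°C minus 12°C, 0.94), VMA13 in S. kudriavzevii (1.38) and S. cerevisiae (1.94), and VPH1 in S. cerevisiae (1.50). Between strains at 28°C they were VPH1 in S. uvarum minus S. kudriavzevii (0.94) and in S. kudriavzevii minus S. cerevisiae (-1.10). Of these 6, only VMA13 in S. cerevisiae also passed the limma test. The share of all genes with such a split was not counted, so the 6 are not shown to be particular to the members. Groups of 3 arrays are too small to flag a single array as outlying within its own group. The effect of leaving out each array is given below.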

How the results depend on the processing

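No called member changed direction in any setting. The averaged calls of VMA13 and VMA8 held in all 7 other settings and in all 18 fits without 1 array. VMA2 (averaged) held in the 7 settings, and VPH1 lost its averaged call when arrays were centred, scaled or quantile normalised. Centring also left 1 call in S. uvarum at 28°C, against 2 with values as deposited. Array weights moved the counts most. They gave 4 members called against T73 in S. uvarum, 1 in S. kudriavzevii and 6 in S. cerevisiae at 28°C, and 8 in S. cerevisiae at 12°C, beside 23.4, 11.3, 40.5 and 57.8% of all genes under the same weights. Between temperatures they gave 3 in S. uvarum, 2 in S. kudriavzevii, 8 in S. cerevisiae and 8 averaged, beside 16.1, 16.9, 61.3 and 58.8% of all genes. Summed over all pairs of strains at both temperatures, with 10 members tested in each comparison, the weights gave 10 calls between strains. The share of all genes called was 0.506 to 25.6% per comparison. For differences of the temperature effect, summed over all pairs of strains, they gave 2 calls (0.0164 to 4.55% of all genes per comparison). Equal weights gave 0 for both sums. The weights ran from 0.217 (S. uvarum 28°C A) to 7.48 (S. cerevisiae 12°C B); the cause was not tested. With values below -10 as missing, S. uvarum at 28°C had 4 calls, S. kudriavzevii at 12°C 0 and S. cerevisiae at 12°C 1. The shares of all genes called were 11.4, 23.8 and 8.77%, in that order. Scaling and quantile normalisation each gave 1 call per strain at 28°C and, at 12°C, 0 for S. kudriavzevii. At 28°C scaling called 2.98, 4.96 and 4.19% of all genes in S. uvarum, S. kudriavzevii and S. cerevisiae. Quantile normalisation called 5.11, 5.54 and 5.23% there. For S. kudriavzevii at 12°C the shares were 9.63% with scaling and 8.31% with quantile normalisation. Scaling gave 0 between temperatures in S. uvarum (1.4% of all genes), and quantile normalisation 1 in S. cerevisiae at 12°C (13.5%). With a replicate block, S. uvarum had 1 call at 28°C, beside 8.77% of all genes (VMA8, 1.82, adjusted p = 0.0597, was lost). S. uvarum then had 0 between temperatures, beside 1.27% (VMA13, 2.38, adjusted p = 0.0511). The counts of calls in the other comparisons stayed within 1.5 times. Fitted alone, the arrays gave 0 calls in S. uvarum at 28°C, beside 0% of all genes. At 12°C they gave 0 for S. kudriavzevii (0% of all genes) and 3 for S. cerevisiae (24.6%). The counts between temperatures were 0 in S. uvarum (0%) and 4 in S. cerevisiae (24.2%). The averaged comparison uses all 18 arrays and was not run alone. Without 1 array the counts ran from 1 to 3 in S. uvarum at 28°C, 0 to 1 for S. kudriavzevii and for S. cerevisiae at 12°C, and between temperatures 0 to 1 in S. uvarum, 0 to 4 in S. cerevisiae and 2 to 5 averaged. The share of all genes called in the fits without 1 array is not given here. A 3-fold rule on the median took 3, 0 and 2 members at 28°C in S. uvarum, S. kudriavzevii and S. cerevisiae, and 0 in S. uvarum and 1 in S. cerevisiae at 12°C. At 28°C the 2-fold rule on the mean took 1 for S. kudriavzevii and 2 for S. cerevisiae, and at 12°C 2 for S. uvarum and 1 for S. kudriavzevii. The share of all genes past the 3-fold rule or the rule on the mean was not counted, so these counts have no background beside them.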
